A study of Mus musculus with 10 samples.

Results

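Nuclear-encoded genes of the mitochondrial respiratory chain were examined by bulk RNA-seq of whole tumours that grew under the skin from MC38 cells, an established line of mouse colon carcinoma. The members were all genes of the deposited table whose symbol begins with Nduf, Uqcr, Atp5 or Sdh, or with Cox followed by a digit of 4 to 8. This gave 98 of 18223 genes, with 47 grouped under complex I, 8 under complex II, 8 under complex III, 18 under complex IV and 17 under complex V. The symbols also bring in genes that are not structural subunits: the assembly factors Ndufaf1 to Ndufaf8 and Sdhaf1 to Sdhaf4, the supercomplex factor Cox7a2l, and Atp5s, a coupling factor. Ndufa4 and its relative Ndufa4l2 were grouped with complex IV, where the Ndufa4 protein is found. The cytochrome c1 gene Cyc1, a complex III subunit, falls outside the symbols. The table holds no row for a gene encoded in mitochondrial DNA, so the mitochondrially made subunits were not analysed here.

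The high tumour burden group (HTB, 5 libraries) carries the label 2000000 and the low tumour burden group (LTB, 5 libraries) the label 500000, both for 14 days. These labels are read as the number of MC38 cells given and the days of growth. No drug or allele is labelled in either group, all tumours share the 1 cell line, and neither the age of the mice nor a measured tumour size was used here. Libraries held 23070917 to 27185168 estimated reads each. Separate animals are not recorded for the libraries, so p-values measure the spread between libraries, which may be technical.

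The respiratory chain passes electrons from NADH (complex I) and succinate (complex II) through ubiquinone to complex III, then by cytochrome c to complex IV, which reduces oxygen. Complexes I, III and IV pump protons, and complex V, the ATP synthase, uses the returning protons to make ATP. Most complexes combine subunits made from nuclear and mitochondrial genes, complex II being wholly nuclear-encoded. Several complex IV subunits exist as isoforms from separate genes, with forms typical of heart and skeletal muscle and others found in nearly all cells.

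Some libraries stood apart, and this bears on every result below. HTB replicate 2 was rich in transcripts of muscle and fat. The summed level of 15 skeletal muscle markers was 16775 CPM (counts scaled to a library total of 1e6) there, while the remaining HTB libraries had 11.7 to 82.2 CPM and the LTB libraries 8.54 to 12.5 CPM. For 13 adipocyte markers the sum was 6059 CPM in HTB replicate 2, while the remaining HTB libraries had 113 to 273 CPM and the LTB libraries 96 to 137 CPM. LTB replicate 1 had the highest sum of 9 T cell markers, 217 CPM, against 46.8 to 102 CPM in the other LTB libraries and 17.1 to 47 CPM in HTB. Macrophage markers summed to 766 to 1338 CPM in HTB libraries and 1213 to 2443 CPM in LTB libraries. Most markers of epithelial cells were near 0 in all tumours, with 9 genes together giving 2.75 to 6.85 CPM in HTB libraries and 6.38 to 16.1 CPM in LTB libraries. Most of each sum was Cdh1, at 2.07 to 5.6 CPM in HTB libraries and 5.53 to 15.3 CPM in LTB libraries. These markers therefore do not identify the colon origin of the line. In bulk tissue, fewer cells of a type and less RNA per cell cannot be told apart.

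No respiratory chain gene passed the test between the groups when all libraries were used. Of the 98 genes 94 had enough reads to be tested, and 0 were lower and 0 higher in HTB at an adjusted p under 0.05 (edgeR quasi-likelihood test, Benjamini-Hochberg adjustment over all 13470 genes tested). Across all tested genes 7.51% were lower and 3.9% were higher. At an unadjusted p under 0.05 there were 5 members, or 5.32%, against 29.1% of all genes. DESeq2 also called 0, with 5 at an unadjusted p under 0.05, and limma voom called 0, with 4. The authors' deposited table gives a q under 0.05 to 2638 genes, 14.5% of those with a q value, and 0 of these are members. The 4 members not tested were Cox6b2, Cox8b, Ndufa11b and Ndufb4b.

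The estimates themselves were small. The median log2 fold change of HTB over LTB was 0.00 over the 94 members and 0.02 over all genes, with 46 members below 0 and 48 above. The 95% interval of the fold change lay within 1.5-fold in either direction for 80 of 94 members (85.1%), against 64.8% of all genes. By complex this was so for 42 of 45 in complex I, 7 of 8 in complex II, 7 of 8 in complex III, 9 of 16 in complex IV and 15 of 17 in complex V. For these 80 genes a change of more than 1.5-fold lies outside the interval. In no member did the HTB and LTB values separate completely, whereas 7.06% of all genes had every HTB library below every LTB library and 4.68% had every HTB library above.

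Within HTB, 1 library was high in most members. HTB replicate 2 held the highest HTB value in 87 of the 94 tested members, against 37.1% of all genes, and the highest value of all 10 libraries in 62, against 20.1% of all genes. Its median ratio to the mean of the other HTB libraries was 1.38 over members and 1 over all genes. By complex the median ratio was 1.33 for I, 1.32 for II, 1.5 for III, 1.46 for IV and 1.38 for V. The 7 members not highest there among HTB were Atp5s, Cox7a2l, Ndufa6, Ndufaf1, Ndufaf3, Ndufaf5 and Sdhaf2, of which 4 are assembly factors. The muscle and adipocyte sums given above were raised in the same library, and their part in the members' values was not tested.

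In LTB, replicate 1 held the highest value in 61 members, against 31.8% of all genes, with a median ratio of 1.22 to the other LTB libraries. LTB replicate 5 held the lowest in 44, against 22.3% of all genes, with a median ratio of 0.907. The deviation of LTB replicate 5 was uneven, with 31 members under 0.8 and 7 over 1.2 of the mean of the other LTB libraries. For example, Atp5k, a small membrane subunit of ATP synthase, had 13.3 CPM in LTB replicate 5 and 26.2 to 36.7 CPM in the other LTB libraries. Its ratio of 0.437 was the lowest of the 94 tested members. Members with transcripts under 800 bases had a median ratio of 0.858 in this library (n = 53), and longer ones 0.931 (n = 40). The short ones also deviated more in LTB replicate 1, at 1.29 against 1.15 for longer ones, and in HTB replicate 2, at 1.42 against 1.32, so the split by length was not particular to LTB replicate 5. RNA quality was not tested.

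**Figure D1:**
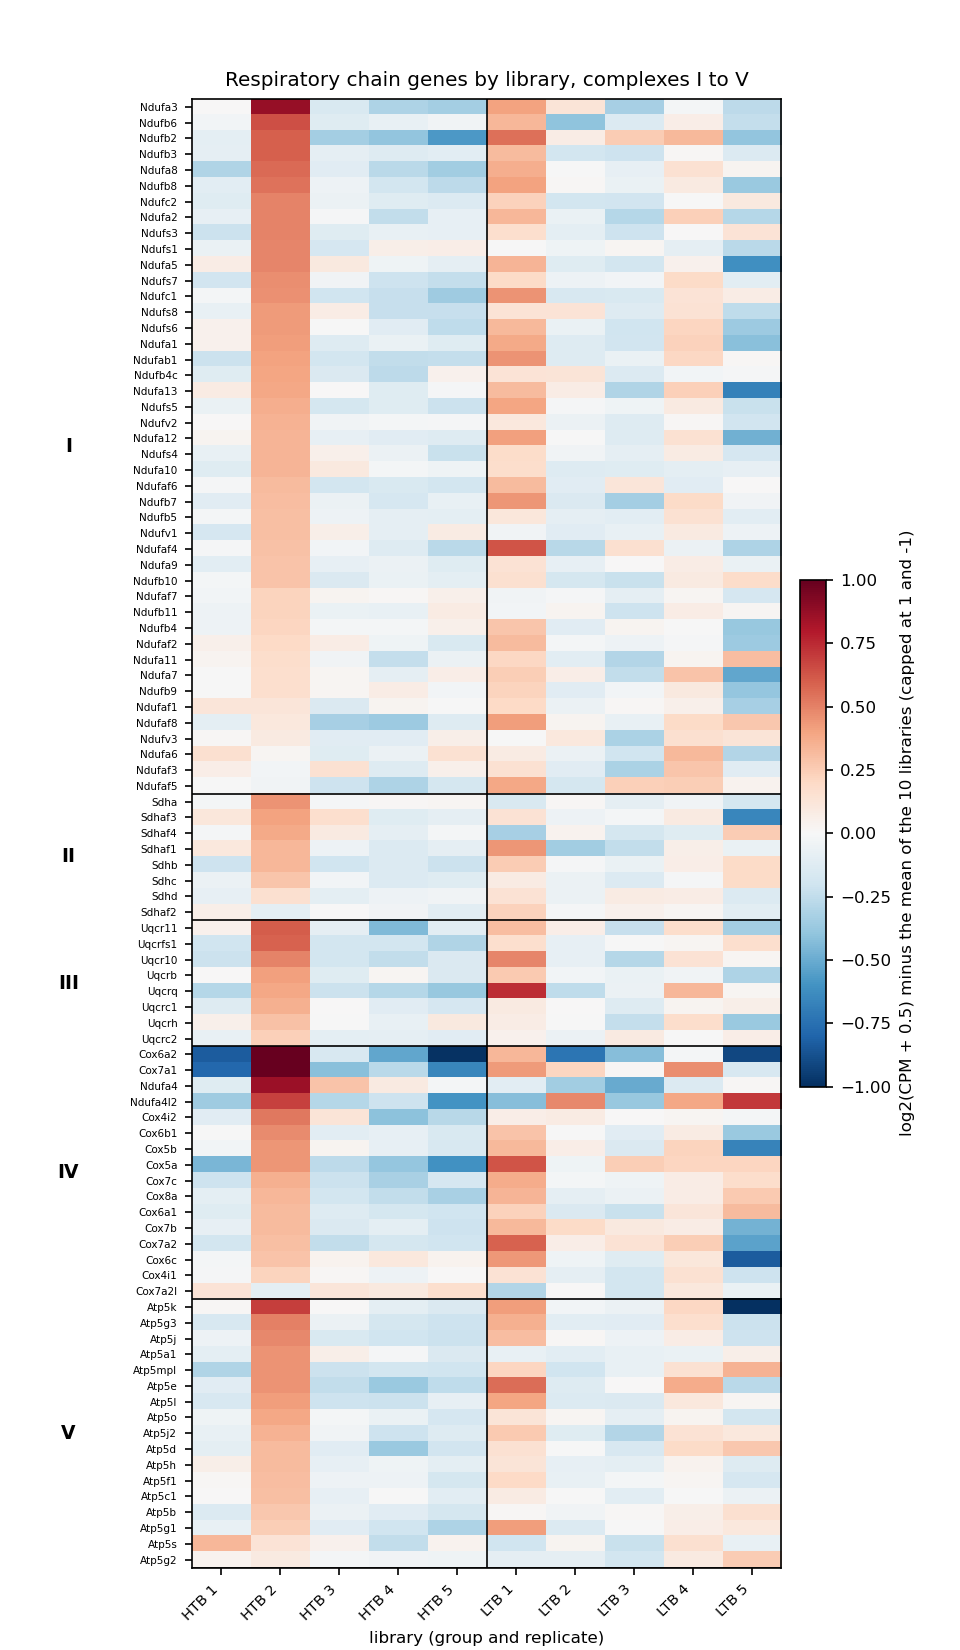
Heat map of 93 of the 94 tested members (rows, grouped by complex I to V and ordered within each by HTB replicate 2) in the 10 libraries (columns, HTB left of LTB). Colour gives log2(CPM + 0.5) minus the gene's mean over libraries, capped at 1 and -1. HTB replicate 2 is red in nearly all rows and is the highest HTB library in 87 of 94, and LTB replicate 1 is the highest LTB library in 61.

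Summed over each complex, the 4 other HTB libraries lay close together. Complex I summed to 1995, 2637, 1991, 1927 and 1951 CPM in HTB replicates 1 to 5, against 2403, 1988, 1896, 2225 and 1847 CPM in LTB replicates 1 to 5. Complex II summed to 502.8, 649.6, 503.1, 501 and 500.6 CPM in HTB, against 546.6, 513.4, 501.9, 526.1 and 514.7 CPM in LTB. Both sums were highest in HTB replicate 2 and overlapped between the groups.

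Complex III summed to 639.5, 885.4, 637, 619 and 618 CPM in HTB, against 795.7, 657.5, 635.3, 718.7 and 643.5 CPM in LTB. Complex IV summed to 1416, 1903, 1429, 1394 and 1371 CPM in HTB, against 1769, 1446, 1381, 1612 and 1346 CPM in LTB. The sum for complex V was 3003, 4001, 3069, 2956 and 2847 CPM in HTB, against 3379, 3032, 3031, 3285 and 3304 CPM in LTB. Again HTB replicate 2 was the highest library in each sum and the ranges of the groups overlapped. Over all members the sums averaged 7990 ± 1174 CPM in HTB and 8000 ± 611 CPM in LTB (SD, n = 5 each). These sums weight genes by read number and so by transcript length.

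Without HTB replicate 2, the members leaned below 0. In that fit 9 of 94 were lower in HTB (9.57%, against 12.7% of all genes) and 0 were higher (against 9.77% of all genes). The share called lower was not above the background. Of the 94 estimates 71 were below 0 and 23 above, against 6914 below and 6637 above over all genes. The median was -0.11, against -0.01 over all genes. The medians were -0.10 for complex I, -0.05 for II, -0.14 for III, -0.28 for IV and -0.14 for V. In 12 members every remaining HTB library lay below every LTB library, and in 0 every one lay above. Among all tested genes the 2 shares were 12.1% and 12%.

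Further libraries were left out to see which calls depended on them. Without HTB replicate 2 and LTB replicate 1, 9 members were lower and 0 higher (background 12.4% lower and 9.26% higher), and 7 of the 9 were also called with only HTB replicate 2 left out. Without LTB replicate 5 as well, 9 were lower and 1 higher (background 10.1% and 7.38%). The lean below 0 was smaller in both. With HTB replicate 2 and LTB replicate 1 left out, 59 estimates were below 0 and 35 above, with a median of -0.05. With LTB replicate 5 also left out, 63 were below 0 and 31 above, with a median of -0.06. Called lower in all 3 of these fits were 6 of the 94, against 9.05% of all genes tested in them, so this count too was not above the background. The 6 genes were Cox5a, Cox7a1 and Cox7c of complex IV, Ndufa8 of complex I, Sdhb of complex II and Uqcrfs1 of complex III. These 6 are named because their values were seen, apart from Cox7a1, Sdhb and Uqcrfs1, which were to be described in any case. The deposited table places Cox5a (NCBI gene 12858) at chr9:57521232-57537629 (plus strand), Cox7a1 (NCBI gene 12865) at chr7:30184171-30186245 (plus strand) and Cox7c (NCBI gene 12867) at chr13:86044798-86046795 (minus strand). It places Ndufa8 (NCBI gene 68375) at chr2:36036334-36049292 (minus strand), Sdhb (NCBI gene 67680) at chr4:140961271-140979197 (plus strand) and Uqcrfs1 (NCBI gene 66694) at chr13:30520584-30547403 (plus strand), all in GRCm38 and each span covering exons and introns.

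**Figure D2:**
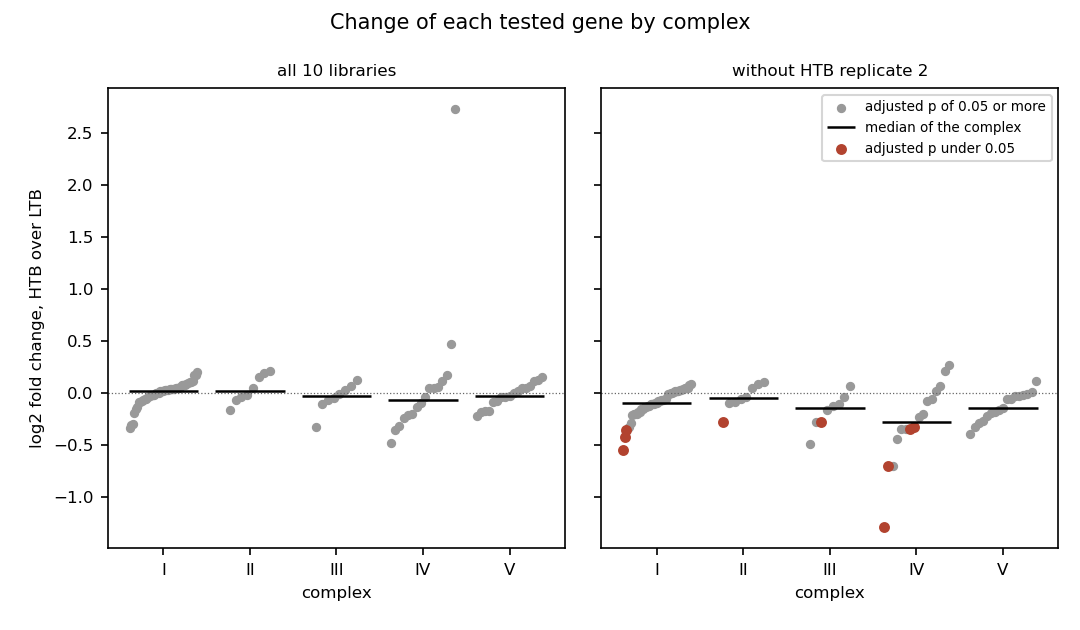
Log2 fold change of HTB over LTB for each tested member (points, ordered by value within complexes I to V), with all 10 libraries (left) and without HTB replicate 2 (right). Black lines are medians of each complex and red points have an adjusted p under 0.05. There are 0 red points on the left and 9 on the right, all below 0, and the isolated high point on the left is Cox6a2 at 2.73.

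Complex I oxidises NADH, with 7 nuclear-encoded core subunits that carry out the chemistry and many accessory subunits around them. With all libraries, its 45 tested genes had a median log2 fold change of 0.02 and a range of -0.34 to 0.20. The 7 core subunits ranged from -0.06 to 0.17.

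The smallest adjusted p of any member belonged to Ndufaf8, an assembly factor that in human cells stabilises Ndufaf5. Ndufaf8 had 12.7, 14.7, 10.7, 10.5 and 12.4 CPM in HTB, against 18.4, 13.9, 12.9, 15.6 and 16.5 CPM in LTB. The groups overlapped, and the log2 fold change was -0.34 ± 0.13 (adjusted p = 0.106). Ndufaf5, which in human cells hydroxylates the core subunit Ndufs7, had 13.1, 12.8, 11.3, 10.5 and 11.6 CPM in HTB, against 17.3, 11.6, 15.6, 15.7 and 13.5 CPM in LTB. Its log2 fold change was -0.31 ± 0.12 (adjusted p = 0.117). Without HTB replicate 2, Ndufaf8 was lower at -0.42 ± 0.12 (adjusted p = 0.0348), while Ndufaf5 was at -0.34 ± 0.13 (adjusted p = 0.0776). Neither passed once LTB replicates 1 and 5 were also left out (adjusted p = 0.112 for Ndufaf8 and 0.154 for Ndufaf5).

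Ndufa8, an accessory subunit on the intermembrane space side, had 24.5, 45.2, 28.0, 25.1 and 23.8 CPM in HTB, against 39.3, 30.3, 28.7, 33.8 and 31.0 CPM in LTB. HTB replicate 2 was the highest of all 10 libraries and the other 4 HTB libraries were below all LTB libraries. The log2 fold change was -0.15 ± 0.18 with all libraries (adjusted p = 0.599) and -0.36 ± 0.10 without HTB replicate 2 (adjusted p = 0.0273). Ndufb2, an accessory subunit of the membrane arm, was lower at -0.55 ± 0.18 in that fit (adjusted p = 0.0497) but not once LTB replicate 1 was also left out (adjusted p = 0.0767), and again without LTB replicate 5 as well (-0.57, adjusted p = 0.0155). Ndufab1, the mitochondrial acyl carrier protein, had 41.7, 64.2, 42.6, 40.7 and 40.9 CPM in HTB, against 66.2, 44.3, 46.3, 56.1 and 48.8 CPM in LTB. It passed only without HTB replicate 2 and LTB replicate 1 together (-0.24, adjusted p = 0.0467). In the authors' mean expression, whose unit is not named and which is read here as scaled to length, the highest tested complex I gene was the accessory subunit Ndufb9, at 234 in HTB and 221 in LTB. The lowest tested was the assembly factor Ndufaf6, at 5.18 in HTB and 5.48 in LTB.

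Complex II oxidises succinate and is also an enzyme of the tricarboxylic acid cycle. Sdha, the flavoprotein that binds succinate, had 188, 261, 189, 192 and 194 CPM in HTB, against 172, 192, 179, 186 and 169 CPM in LTB. Sdhb, its iron-sulphur partner, had 70.2, 102, 70.6, 73.5 and 69.8 CPM in HTB, against 96.6, 80.6, 77.3, 85.0 and 92.4 CPM in LTB. HTB replicate 2 was the highest library for both, and the rest of HTB lay within or above the LTB range for Sdha and below it for Sdhb.

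The estimate for Sdha was 0.19 ± 0.10 with all libraries (adjusted p = 0.214) and 0.09 ± 0.06 without HTB replicate 2 (adjusted p = 0.260). For Sdhb it was -0.16 ± 0.11 with all libraries (adjusted p = 0.372) and -0.28 ± 0.07 without HTB replicate 2 (adjusted p = 0.0219). The difference between these 2 estimates was not tested. Sdhc and Sdhd are the membrane anchors that hold the complex and bind ubiquinone. Sdhc averaged 96.9 ± 12.4 CPM in HTB and 98.5 ± 8.87 CPM in LTB, and Sdhd averaged 89.1 ± 7.02 CPM in HTB and 91.9 ± 7.48 CPM in LTB (SD, n = 5 each). Their log2 fold changes were -0.02 ± 0.09 for Sdhc and -0.04 ± 0.07 for Sdhd. Of the complex II genes, Sdhc was highest in the authors' mean expression (90.5 in HTB and 91.6 in LTB) and the assembly factor Sdhaf3 lowest (6.17 in HTB and 5.32 in LTB).

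Complex III transfers electrons from ubiquinol to cytochrome c. Uqcrfs1, the Rieske iron-sulphur protein and the only member that is a catalytic subunit of this complex, had 42.4, 73.7, 42.8, 42.8 and 39.5 CPM in HTB, against 54.8, 46.0, 48.6, 49.4 and 54.9 CPM in LTB. Apart from HTB replicate 2, the highest of the 10, all HTB libraries were below all LTB libraries. The log2 fold change was -0.07 ± 0.16 with all libraries (adjusted p = 0.795) and -0.28 ± 0.07 without HTB replicate 2 (adjusted p = 0.019). It was also the lowest of the complex in the authors' mean expression, at 39.9 in HTB and 41.7 in LTB. Uqcrb, a small subunit, was the highest on that scale, at 273 in HTB and 262 in LTB, with a log2 fold change of 0.07 ± 0.12. The catalytic subunit gene outside the symbols, Cyc1, was at -0.26 ± 0.13 (adjusted p = 0.20).

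Complex IV had the widest range of estimates, -0.48 to 2.73 over its 16 tested genes. Cox5a, a subunit found in all tissues, had 51.7, 96.4, 59.2, 54.1 and 46.4 CPM in HTB, against 110, 69.0, 84.5, 82.5 and 82.6 CPM in LTB. Without HTB replicate 2 the groups did not overlap. The log2 fold change was -0.48 ± 0.20 with all libraries (adjusted p = 0.134) and -0.70 ± 0.12 without HTB replicate 2 (adjusted p = 0.00559). It was -0.59 without LTB replicate 1 as well (adjusted p = 0.00228), and -0.57 when LTB replicate 5 was left out too (adjusted p = 0.00686).

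Cox7c, another small subunit of all tissues, had 78.8, 117, 78.6, 72.9 and 80.9 CPM in HTB, against 118, 90.0, 88.3, 96.0 and 103 CPM in LTB. Its log2 fold change was -0.21 ± 0.13 with all libraries (adjusted p = 0.308) and -0.35 ± 0.09 without HTB replicate 2 (adjusted p = 0.0199). Ndufa4, unlike these, had a positive estimate. It had 51.0, 101, 67.8, 59.1 and 54.8 CPM in HTB, against 51.7, 43.6, 39.1, 50.4 and 56.1 CPM in LTB. The highest HTB library was replicate 2, the ranges overlapped, and the log2 fold change was 0.47 ± 0.18 (adjusted p = 0.116). Without HTB replicate 2 it was 0.27 ± 0.11 (adjusted p = 0.106), and it passed only when LTB replicates 1 and 5 were left out as well (0.39, adjusted p = 0.0417).

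**Figure D3:**
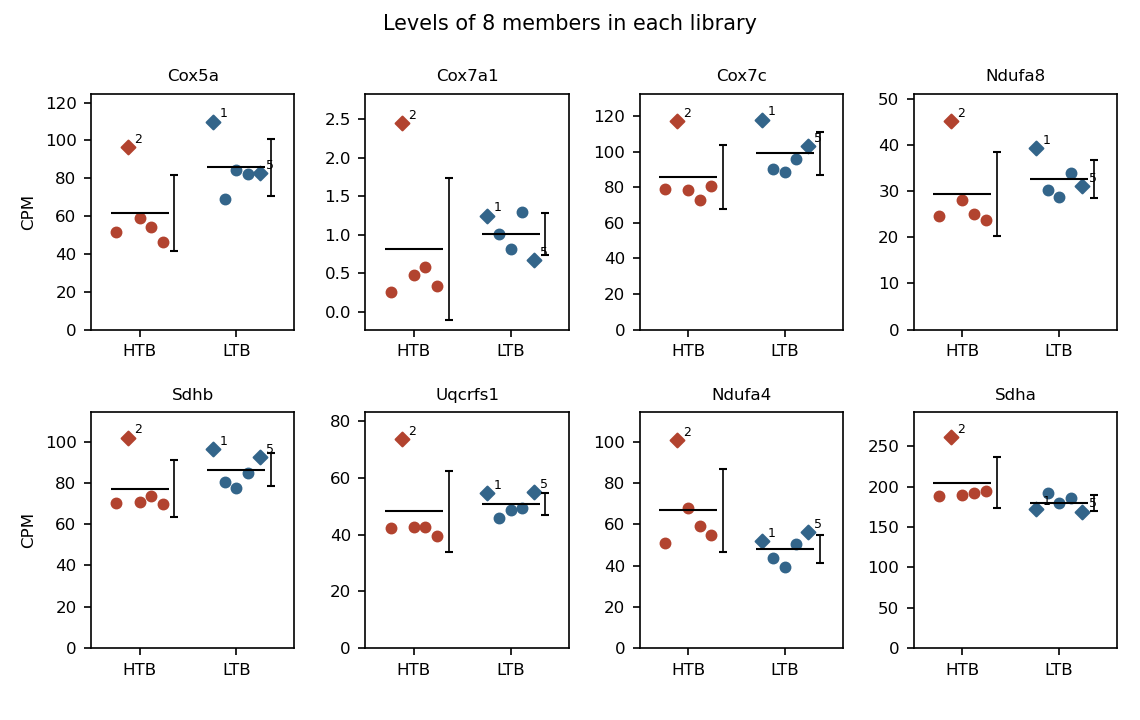
CPM in each library for the 6 genes lower in HTB in all 3 fits that leave out libraries, and for Ndufa4 and Sdha. Points are libraries, with HTB left of LTB, diamonds mark HTB replicate 2, LTB replicate 1 and LTB replicate 5 (numbered), lines are means and bars SD (n = 5 each). In each panel the highest HTB point is replicate 2, for example 96.4 CPM for Cox5a against 46.4 to 59.2 CPM in the other HTB libraries.

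The muscle-type isoforms of complex IV were highest in HTB replicate 2, and Cox6a2 and Cox8b were low in the other 9 libraries. Cox6a2, the heart and skeletal muscle form of subunit 6a, had 0.874, 46.1, 1.68, 1.2 and 0.733 CPM in HTB, against 2.57, 0.973, 1.32, 1.91 and 0.801 CPM in LTB. Cox8b, the muscle and brown fat form of subunit 8, had 0, 15.2, 0.146, 0 and 0 CPM in HTB, against 0, 0.0778, 0.128, 0.0764 and 0 CPM in LTB. Cox7a1, the muscle form of subunit 7a, had 0.255, 2.45, 0.476, 0.580 and 0.330 CPM in HTB, against 1.25, 1.01, 0.812, 1.30 and 0.667 CPM in LTB. HTB replicate 2 was the highest library for each of these genes. For Cox7a1 the other HTB libraries were below all LTB libraries, whereas for Cox6a2 replicate 5 was below all LTB libraries and replicates 1, 3 and 4 lay among them.

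The Cox6a2 estimate was 2.73 ± 1.19 (adjusted p = 0.158) with all libraries and -0.44 ± 0.38 (adjusted p = 0.413) without HTB replicate 2. For Cox7a1 it was -0.32 ± 0.57 with all libraries (adjusted p = 0.747) and -1.29 ± 0.31 without HTB replicate 2 (adjusted p = 0.0174), at levels of about 1 CPM or less. Cox6b2, typical of testis, had 0.0364, 0.332, 0, 0 and 0.0733 CPM in HTB, against 0.189, 0.0778, 0.128, 0.229 and 0.089 CPM in LTB. Cox4i2, an oxygen-regulated form of subunit 4 described in lung, had 0.510, 1.08, 0.696, 0.326 and 0.403 CPM in HTB, against 0.644, 0.662, 0.598, 0.611 and 0.578 CPM in LTB (log2 fold change -0.04 ± 0.32).

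The partners found in most tissues were less raised in HTB replicate 2 than Cox6a2 and Cox8b. Cox6a1 averaged 133 ± 21.6 CPM in HTB and 145 ± 23.3 CPM in LTB, Cox8a averaged 145 ± 28.2 CPM in HTB and 167 ± 22.3 CPM in LTB, and Cox7a2 averaged 62.8 ± 10.9 CPM in HTB and 73.9 ± 19.7 CPM in LTB (SD, n = 5 each). In HTB replicate 2 they were also the highest of HTB, at 172 CPM for Cox6a1, 194 CPM for Cox8a and 82.2 CPM for Cox7a2. Without that library Cox8a was lower in HTB at -0.33 ± 0.10 (adjusted p = 0.0384), and not once LTB replicate 1 was left out too (adjusted p = 0.0505). Cox7a2 passed only without HTB replicate 2, LTB replicate 1 and LTB replicate 5 (-0.35, adjusted p = 0.00644), as did Cox7b (-0.25, adjusted p = 0.0186).

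Cox6b1 averaged 126 ± 25 CPM in HTB and 122 ± 20.2 CPM in LTB, and Cox4i1 averaged 258 ± 20.3 CPM in HTB and 247 ± 29.9 CPM in LTB (SD, n = 5 each). Their log2 fold changes were 0.05 ± 0.14 for Cox6b1 and 0.06 ± 0.09 for Cox4i1. Cox4i1 was the highest of complex IV in the authors' mean expression, at 405 in HTB and 386 in LTB, and Cox4i2 the lowest tested, at 0.912 in HTB and 0.906 in LTB. Cox7a2l, described as a factor that joins complexes III and IV into supercomplexes, differed from the others in HTB replicate 2. It had 184, 157, 182, 180 and 189 CPM in HTB, against 137, 168, 148, 181 and 160 CPM in LTB, and HTB replicate 2 was the lowest HTB library. Its log2 fold change was 0.17 ± 0.08 (adjusted p = 0.211).

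Ndufa4l2, a relative of Ndufa4 induced by hypoxia-inducible factor, had 1.78, 4.19, 1.90, 2.03 and 1.43 CPM in HTB, against 1.67, 3.58, 1.75, 3.32 and 4.27 CPM in LTB. The values overlapped, with a log2 fold change of -0.36 ± 0.36 (adjusted p = 0.530). It passed only without HTB replicate 2 and LTB replicate 1 together (-0.85, adjusted p = 0.0446). In the same libraries, 15 hypoxia targets outside the symbols summed to 1969 to 3213 CPM in HTB libraries and 3582 to 5671 CPM in LTB libraries. With all libraries 10 of the 15 were lower in HTB and 0 higher, against 7.51% and 3.9% of all genes. The 2 of smallest p in this list are given next. The glycolytic enzyme gene Pgk1 was lower by a log2 fold change of -1.04 ± 0.15 (adjusted p = 0.00339) and the prolyl hydroxylase gene Egln3 by -2.15 ± 0.29 (adjusted p = 0.00251).

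**Figure D4:**
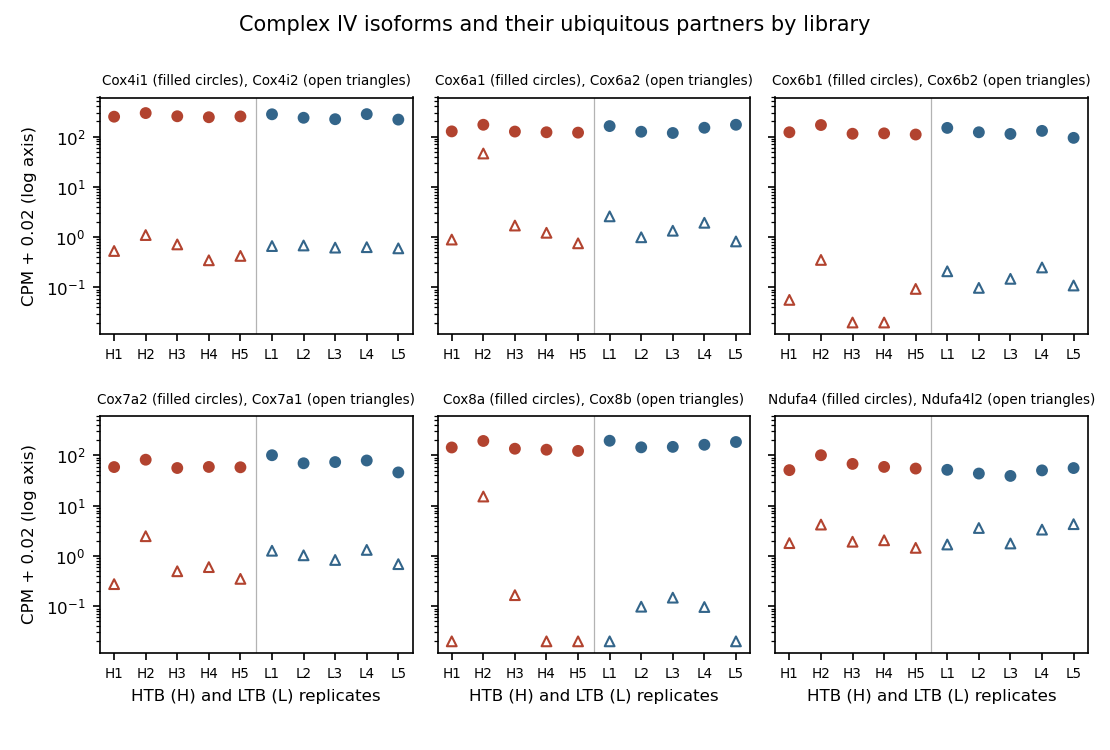
CPM + 0.02 on a log axis in each library (H1 to H5 are HTB and L1 to L5 are LTB) for complex IV isoforms (open triangles) and the partners found in most tissues (filled circles). In HTB replicate 2 Cox6a2 reached 46.1 CPM and Cox8b 15.2 CPM, whereas their partners Cox6a1 and Cox8a stood at 172 and 194 CPM.

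The promoters of 4 complex IV and complex I genes are shown because their levels behaved differently: Cox8b, high only in HTB replicate 2; its partner Cox8a; and Cox5a and Ndufa8, lower in HTB in all 3 fits that leave out libraries. Each window is the 250 bases before the RefSeq start, read 5′ to 3′ on the gene's strand from RefSeq promoters on GRCm38.p6. Capitals mark matches on either strand to 3 motifs: CGCANGCGC for NRF1, CCGGAAG for ETS factors, both factors known for respiratory chain genes, and CAGCTG, the E-box of myogenic factors. Cox8b lies at chr7:140900447-140900696 (minus strand), Cox8a at chr19:7217617-7217866 (minus), Cox5a at chr9:57520982-57521231 (plus) and Ndufa8 at chr2:36049339-36049588 (minus).
Cox8b: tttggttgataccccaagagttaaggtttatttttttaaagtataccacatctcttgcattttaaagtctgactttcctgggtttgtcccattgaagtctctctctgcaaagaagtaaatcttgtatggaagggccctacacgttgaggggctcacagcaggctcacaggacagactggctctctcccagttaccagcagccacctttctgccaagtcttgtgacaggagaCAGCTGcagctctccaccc
Cox8a: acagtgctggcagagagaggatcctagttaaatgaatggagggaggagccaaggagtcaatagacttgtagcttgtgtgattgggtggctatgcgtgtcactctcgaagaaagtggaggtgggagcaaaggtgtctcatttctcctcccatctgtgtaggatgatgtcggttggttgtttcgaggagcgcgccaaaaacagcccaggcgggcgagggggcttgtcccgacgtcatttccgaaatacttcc
Cox5a: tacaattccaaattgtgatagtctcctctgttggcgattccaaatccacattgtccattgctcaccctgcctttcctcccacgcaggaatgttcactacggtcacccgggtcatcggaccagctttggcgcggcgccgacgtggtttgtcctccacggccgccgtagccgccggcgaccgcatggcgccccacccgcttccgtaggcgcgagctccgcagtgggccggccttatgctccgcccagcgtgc
Ndufa8: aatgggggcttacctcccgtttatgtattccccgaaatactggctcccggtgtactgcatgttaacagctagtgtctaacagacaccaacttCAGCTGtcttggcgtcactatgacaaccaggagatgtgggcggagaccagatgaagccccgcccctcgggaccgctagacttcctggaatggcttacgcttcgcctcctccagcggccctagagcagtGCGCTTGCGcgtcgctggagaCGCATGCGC

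The Cox8b window held 1 E-box, the Ndufa8 window held 2 NRF1 matches and 1 E-box, and the Cox8a and Cox5a windows held 0 matches. RefSeq windows matched 78 of the 98 members by symbol, giving 83 windows. The NRF1 motif was in 18 of these (21.7%), against 5.19% of all 32851 windows, and the ETS motif in 16 (19.3%), against 6.91%. The E-box was in 6 (7.23%), against 13%. These are matches of letters and not binding sites.

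Complex V makes ATP. Its 17 tested genes ranged from -0.22 to 0.15 on the log2 scale with all libraries, and 0 passed in any of the 3 fits that leave out libraries. Atp5b, the catalytic beta subunit and the highest of complex V in the authors' mean expression at 526 in HTB and 549 in LTB, had 866, 1152, 913, 883 and 846 CPM in HTB, against 961, 930, 962, 993 and 1066 CPM in LTB. Its log2 fold change was -0.08 ± 0.09 with all libraries (adjusted p = 0.599) and -0.16 ± 0.06 without HTB replicate 2 (adjusted p = 0.0740), where every remaining HTB library lay below every LTB library. Atp5s was the lowest on that scale, at 5.84 in HTB and 5.27 in LTB.

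The c subunit of the rotor ring is made from 3 genes, Atp5g1, Atp5g2 and Atp5g3, that encode the same mature protein. Atp5g1 averaged 93.3 ± 14.2 CPM in HTB and 106 ± 16.0 CPM in LTB, with a log2 fold change of -0.18 ± 0.12 (adjusted p = 0.351). Atp5g2 had 239, 249, 230, 228 and 226 CPM in HTB, against 219, 219, 205, 249 and 278 CPM in LTB (0.00 ± 0.08), and its ratio of HTB replicate 2 to the other HTB libraries, 1.08, was small beside that of Atp5g3, 1.58. Atp5g3 averaged 102 ± 23.9 CPM in HTB and 104 ± 18 CPM in LTB (-0.03 ± 0.16).

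The complexes can be set side by side in the authors' mean expression only loosely. Reads per unit of it rose with the median annotated transcript length over 93 members (Spearman's rho 0.67, across genes, a description), but members of similar annotated length also differed. The median was 66.2 in HTB and 65.6 in LTB for complex I, 44.4 in HTB and 39.7 in LTB for complex II, and 106 in HTB and 111 in LTB for complex III. For complex IV it was 177 in HTB and 154 in LTB, and for complex V 177 in both. These medians include assembly factors, which are 8 of the 47 complex I members and 4 of the 8 complex II members. In HTB the subunits Sdha, Sdhb, Sdhc and Sdhd stood at 74.5, 79.8, 90.5 and 75.7. In LTB they stood at 64.6, 88.8, 91.6 and 77.4.

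Lists of genes that work beside the chain were counted in the same fit, where 7.51% of all genes were lower and 3.9% higher. Of 34 tested assembly factors outside the symbols 2 were higher in HTB and 0 lower: Atpaf1, a factor for ATP synthase (0.17 ± 0.05, adjusted p = 0.0455), and Ttc19, a complex III factor (0.25 ± 0.07, adjusted p = 0.0423). Among 16 electron carriers and donors 1 was higher, Etfdh, which feeds electrons from fatty acid oxidation to ubiquinone (0.35 ± 0.08, adjusted p = 0.0188). Among 18 genes of the tricarboxylic acid cycle and pyruvate metabolism 1 was higher, Suclg2, a subunit of succinyl-CoA ligase (0.42 ± 0.08, adjusted p = 0.0122). Of 20 genes for expression of mitochondrial DNA and 13 tested regulators of mitochondrial biogenesis, 0 passed in either direction. Ppargc1a, the coactivator PGC-1alpha, was too low to test, with 1.54 CPM in HTB replicate 2 and at most 0.195 CPM elsewhere.

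With all libraries the other genes of smallest p in these lists did not pass. Coq9 and Gabpa stand for ubiquinone synthesis and an ETS factor, Pcx for pyruvate carboxylase, Tsfm and Mterf4 for mitochondrial translation, and Prkaa2 for a catalytic subunit of AMP-activated kinase. Coq9 was at 0.27 ± 0.09 (log2, SE; adjusted p = 0.0723), Pcx at 2.91 ± 1.25 (adjusted p = 0.153), Tsfm at -0.42 ± 0.14 (adjusted p = 0.0766), Mterf4 at 0.24 ± 0.11 (adjusted p = 0.171), Gabpa at 0.23 ± 0.10 (adjusted p = 0.142) and Prkaa2 at 1.40 ± 0.59 (adjusted p = 0.143). Pcx had 112 CPM in HTB replicate 2 and Prkaa2 had 39.5 CPM. Without that library 5 further genes of these lists were lower: Cs, citrate synthase, at -0.39 ± 0.07 (adjusted p = 0.00703), Tsfm at -0.54 ± 0.11 (adjusted p = 0.00977), Pcx at -0.71 ± 0.19 (adjusted p = 0.0256), Tufm, a mitochondrial elongation factor, at -0.22 ± 0.06 (adjusted p = 0.027) and Atpaf2, an ATP synthase factor, at -0.29 ± 0.08 (adjusted p = 0.0335). Mterf4 and Gabpa were higher, at 0.32 ± 0.09 (adjusted p = 0.0351) and 0.29 ± 0.09 (adjusted p = 0.0421), and Atpaf1, Ttc19, Etfdh and Suclg2 were higher in this fit too. In that fit 12.7% of all genes were lower and 9.77% higher. Markers of other cell types were counted with all libraries, where 7.51% of all genes were lower and 3.9% higher. There 3 of 8 tested skeletal muscle markers were higher, and 7 of 9 T cell, 3 of 10 macrophage and 1 of 2 epithelial markers were lower. In that fit 0 of 3 adipocyte, 0 of 3 heart and 0 of 10 fibroblast markers passed. Without HTB replicate 2, 2 skeletal muscle markers and 1 fibroblast marker were higher. Lower without it were 9 T cell, 2 macrophage, 2 heart, 1 adipocyte and 1 epithelial markers. The 2 heart markers were not among the 3 tested with all libraries, and reached at most 2.83 CPM in any library.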

How the data were processed

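The authors deposited 1 table of estimated counts per gene for 10 libraries, not scaled to depth. Per the submitters' processing notes the build was GRCm38 (mm10). Per the labels' protocols a SMARTer mRNA kit was used for the libraries. Aligner, counting tool and strandedness were not given in the sources used here; hence reads of overlapping or antisense genes cannot be told apart. Of the deposited counts 86.4% were whole (tolerance 1e-09), the others being rounded by at most 0.5. Reads of Ndufb4, Ndufb4c, Ndufaf7 and Uqcrc2 were fractional in all 10 libraries and are treated as uncertain; the cause was not tested. The authors' mean expression per group is used as a score. Per the file headers their p-value and q-value columns are labelled as DESeq2 output, and their log2 fold change column names no tool.

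Counts were tested with edgeR 4.0.16 (R 4.3.3): TMM factors, filterByExpr and quasi-likelihood tests on group, checked on simulated data. CPM used TMM-scaled totals. Every pair of libraries within a group differed beyond sampling noise (chi-square per degree of freedom at least 10.56). Alternatives used limma 3.58.1, DESeq2 1.42.0, other normalizations, filters and thresholds, a replicate block and left-out libraries. Leaving out HTB replicate 2, LTB replicate 1 and LTB replicate 5 together was chosen after seeing the data.

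The members and lists were chosen with earlier results of these data known. Genes named were members past the threshold, isoforms with their partners, the c-subunit genes and the complex II subunits. Also named were the highest and lowest tested in each complex by the authors' mean expression. From each list of genes beside the chain and from the hypoxia targets, the 2 of smallest p were named. From the cell type markers only Cdh1 and Plin4 were named, though the same rule covered those lists. Others were named after their values were seen: Cox5a, Cox7c, Ndufa8, Ndufab1, Ndufaf5, Ndufaf8, Ndufb2, Atp5k, Cyc1, Ppargc1a, Cs, Tufm and Atpaf2. For 1 tested member single values are not reported here.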

Additional observations from a re-analysis of the deposited data

Results flagged for a closer look

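In 28 of 40 items tested, HTB replicate 2 stood apart from the other 4 HTB libraries by Dixon's ratio (95% critical value 0.71). The items were genes and sums of complexes. Each was tested in HTB and in LTB, 80 group values in all, and LTB replicate 1 or 5 stood apart in 0. Chance flags about 1 in 20 groups when genes are not chosen for their values, a rate that does not apply here: 4 of the 28 are genes named after their values were seen, and all 28 share 1 library. By the same ratio HTB replicate 2 stood apart in 52 of the 94 tested members (55.3%) and in 12.9% of all tested genes.

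The sums in HTB replicate 2 were 2637 CPM for complex I, 649.6 for complex II, 885.4 for complex III, 1903 for complex IV and 4001 for complex V. Among complex IV genes the values there were 294 CPM for Cox4i1, 172 for Cox6a1, 46.1 for Cox6a2, 170 for Cox6b1, 0.332 for Cox6b2, 2.45 for Cox7a1, 82.2 for Cox7a2, 123 for Cox7b, 117 for Cox7c, 15.2 for Cox8b, 96.4 for Cox5a and 4.19 for Ndufa4l2. Cox7a2l stood apart on the low side, at 157 CPM. Complex II genes stood at 261 CPM for Sdha, 102 for Sdhb, 118 for Sdhc and 101 for Sdhd. In the other complexes the values were 141 CPM for Uqcrb, 73.7 for Uqcrfs1, 1152 for Atp5b, 144 for Atp5g3, 45.2 for Ndufa8 and 64.2 for Ndufab1.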

How the results depend on the processing

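With all 10 libraries and an adjusted p under 0.05, 0 members were called under the other normalizations and filters, by DESeq2 or by limma voom. In the edgeR fit 0 were called at thresholds of 0.01 and 0.1, whereas 4 members had a DESeq2 adjusted p under 0.1. Leaving out libraries gave 0 to 9 members lower (9 without HTB replicate 2) and 0 to 1 higher (1 without HTB replicate 2, LTB replicate 1 and LTB replicate 5). Over all genes, leaving out libraries gave 561 to 1716 lower (1716, 561 and 566 when HTB replicate 2, 3 or 4 was left out) and 177 to 1324 higher. The higher count was 1324, 178, 177 and 240 when HTB replicate 2, 3, 4 or 5 was left out, and 297, 241, 305 and 302 for LTB replicate 1, 3, 4 or 5. At a threshold of 0.01 there were 330 lower and 58 higher, at 0.1 there were 1131 higher, and DESeq2 gave 1097 higher.

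Same-numbered libraries correlated at 0.002 to 0.109 over 5 pairs, so the numbers were not used as pairs. With the replicate block 0 members passed, 2 at an unadjusted p under 0.05, and 221 genes were higher. Of 691 values of 33 named members under 21 alternatives, 636 kept direction and side of the threshold, 28 passed only with libraries left out, and 27 in 8 members changed sign. With libraries left out, log2 fold changes ran from -0.36 to 0.11 for Cox4i2, -0.44 to 3.03 for Cox6a2, -0.08 to 0.13 for Cox6b1, -0.04 to 0.07 for Atp5g2, -0.18 to 0.06 for Atp5g3, -0.10 to 0.02 for Sdhc, -0.00 to 0.14 for Ndufb9 and -0.04 to 0.15 for Uqcrb. Atp5g2 was at -0.00 under a filter of 1 CPM. The cause was not tested. Isoforms near 1 CPM rest on few reads.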
